A study of Mus musculus with 6 samples.

Results

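Genes of 3 families that remodel the extracellular matrix were followed in 4T1-T cells: the matrix metalloproteinases (MMPs), the ADAMTS proteases and the TIMPs, which are protease inhibitors. They were chosen by symbol (Mmp, Adamts or Timp with a number) among the 15973 genes of the deposited comparison, all protein-coding, which gave 39 genes, 19 of them MMPs, 16 ADAMTS and 4 TIMPs. 4T1-T is a VM-proficient sub-clone of the mouse mammary carcinoma line 4T1, VM being vasculogenic mimicry, the forming of vessel-like channels by tumor cells. All cells were starved of serum overnight, incubated for 4 h with Alexa-488 acLDL (acetylated low-density lipoprotein carrying a fluorophore) at 10 ug/mL and kept for 1 h in complete medium. A cell sorter then collected the brightest 25% of cells as acLDL-high and the dimmest 25% as acLDL-low. RNA-Seq was done on 3 libraries of each population, from sorts on separate occasions, so both populations come from 1 sub-clone in culture and there was no population without acLDL. The comparison asks which genes go with acLDL uptake, a property of endothelial cells and also of some macrophages.

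MMPs are zinc-dependent endopeptidases that are made as inactive precursors and cut collagens, gelatins, laminins and many other matrix and cell surface proteins. ADAMTS proteases are secreted relatives with thrombospondin-type repeats, known for cutting proteoglycans such as aggrecan and versican and for trimming procollagens. TIMPs bind the active site of MMPs and block it, so a tumor cell's capacity to dissolve or reshape matrix depends in part on their balance. Matrix turnover is needed when endothelial cells, or tumor cells that imitate them, form tubes.

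The total count per library lay between 70263372 and 94216786. Levels are given in CPM, the count of a gene relative to the TMM-scaled size of its library, and 3 counts correspond to between 0.0323 and 0.0429 CPM, a floor that covers counting error only. Of the genes with 1 to 20 counts in a library, between 70.9% and 72.3% had an even count, so that most fragments appear to have been counted once for each mate. Both libraries of replicate 2 stood apart, with 3.63% of their counts on mitochondrial genes against 5.03% to 6.02% in the other libraries. Of 8 mammary epithelial markers 7 exceeded 1 CPM on average (Krt5 was at 0 counts), with a sum between 3004 and 5434 CPM. Of 12 macrophage markers, Adgre1, Cd163, Marco and Tyrobp were at 0 counts and 3 exceeded 1 CPM on average (Cd14, Cd68 and Mrc1). The sum was 19.3 to 21.8 CPM in acLDL-low and 20.1 to 24.5 CPM in acLDL-high libraries. Cd14 was at 9.25, 7.89 and 11.4 CPM in acLDL-low replicates 1, 2 and 3, against 12.0, 9.65 and 14.0 CPM in acLDL-high. For Cd68 these were 10.7, 8.31 and 7.90 against 6.75, 7.19 and 8.16 CPM. For Mrc1 they were 1.51, 2.82 and 2.19 against 2.83, 2.99 and 2.13 CPM. The 9 neutrophil markers summed to at most 0.624 CPM, with Ly6g, Mpo, Camp, Csf3r and S100a9 at 0, and the 10 endothelial markers to at most 2.64 CPM, with Emcn, Erg, Cldn5 and Flt4 at 0. The 10 fibroblast markers, of which Pdgfra was the main one, summed to 30.4 to 42.3 CPM in acLDL-low and 33.1 to 44.7 CPM in acLDL-high libraries, with Col3a1, Lum and Dpt at 0. The part of other cell types in the results was not tested. In a bulk library, fewer cells with a transcript and less of it per cell cannot be told apart.

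Of the 39 genes, 24 passed the filter on low counts and were tested (13 MMPs, 9 ADAMTS and 2 TIMPs). The other 15 had between 2 and 48 counts in all 6 libraries together and no more than 26 in any library. They were Mmp2, Mmp8, Mmp17, Mmp21, Mmp25 and Mmp27, Adamts2, Adamts3, Adamts5, Adamts13, Adamts15, Adamts16 and Adamts17, and Timp3 and Timp4. Among them are gelatinase A (Mmp2), neutrophil collagenase (Mmp8) and the protease that cuts von Willebrand factor (Adamts13). Of the 24 tested genes, 13 had a mean of at least 10 CPM, 8 lay between 1 and 10 CPM, and Mmp23, Mmp12 and Adamts12 lay under 1 CPM.

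**Figure D1:**
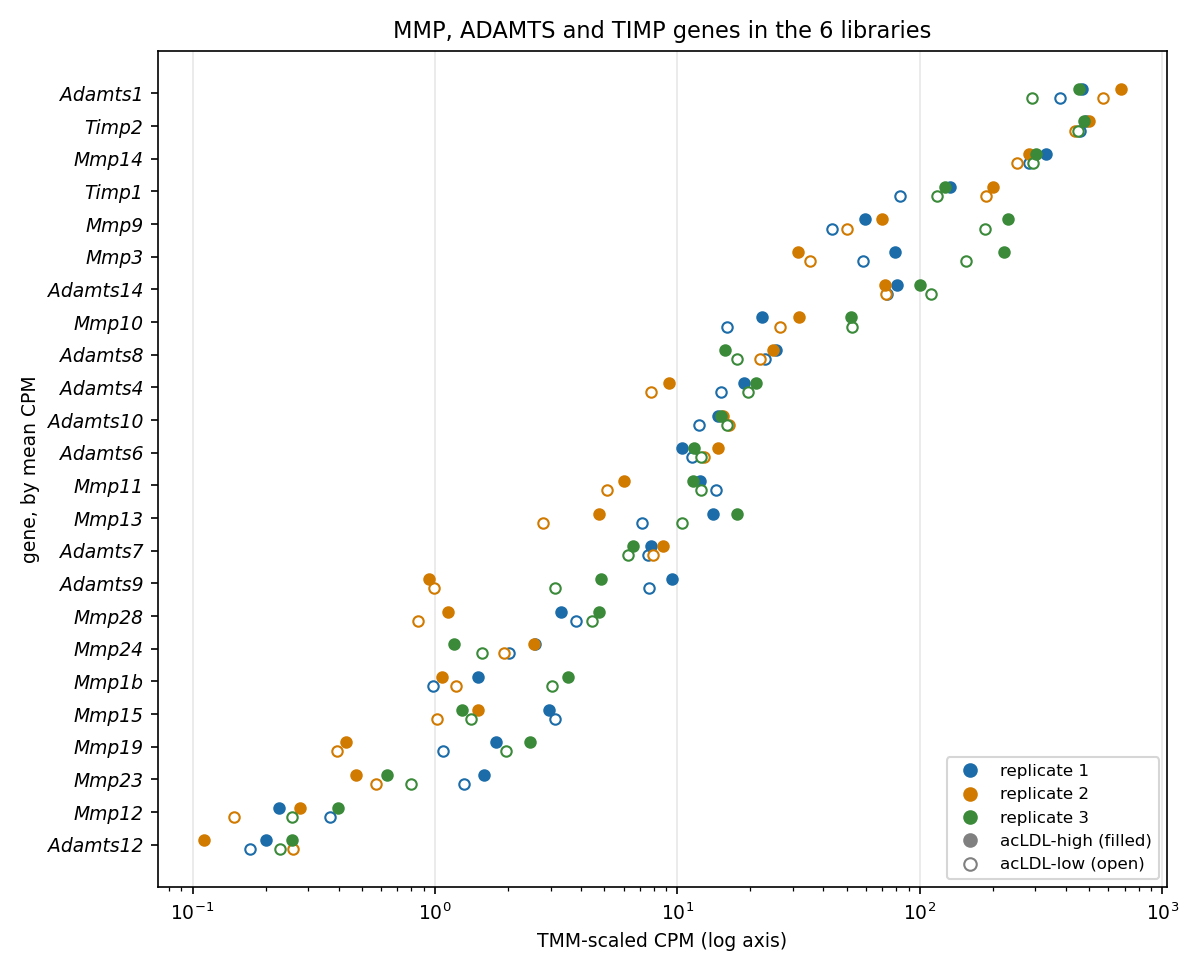
Level of the 24 tested genes in each of the 6 libraries, in TMM-scaled CPM on a log axis, with genes ordered by their mean. Open points are acLDL-low and filled points acLDL-high libraries, and colors mark the replicate number. Mmp3, Mmp9, Mmp28 and Adamts9 spread more between replicate numbers than between populations, while Timp2 sits between 436 and 497 CPM in all 6 libraries.

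In acLDL-high cells 3 of the 24 tested genes were higher (adjusted p under 0.05 in edgeR, with the replicate number blocked in a quasi-likelihood fit): collagenase 3 (Mmp13), gelatinase B (Mmp9) and Adamts1. Over all 12572 genes tested, 3.43% were called higher and 1.32% lower, 4.75% in all. None of the 24 was called lower, 11 had an unadjusted p under 0.05 (19.4% of all genes tested) and 0 were called lower by DESeq2. The median log2 fold change of the 24 genes was 0.16, against 0.0017 over all genes tested. In all 3 pairs of libraries that share a replicate number, 9 of the 24 genes had the higher level in the acLDL-high library, against 20.9% of all genes tested, and 0 were lower in all 3 pairs, against 19.4%. By family the median was 0.23 for the 13 MMPs, 0.05 for the 9 ADAMTS genes and 0.20 for Timp1 and Timp2. Without the replicate block no gene was called, among the 24 or among all genes, and 0 of the 24 and 45 of all genes had an unadjusted p under 0.05. Without the pair of replicate 2, which stood apart, 7 of the 24 genes were called higher, the further ones being Timp1, Mmp3, Mmp10 and Adamts9, and 4.82% of all genes tested were called higher in that fit. Without a filter on low counts 9 of all 39 genes were called higher, the further ones being the same 4 with Mmp14 and Adamts4, against 4.19% of all genes.

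**Figure D2:**
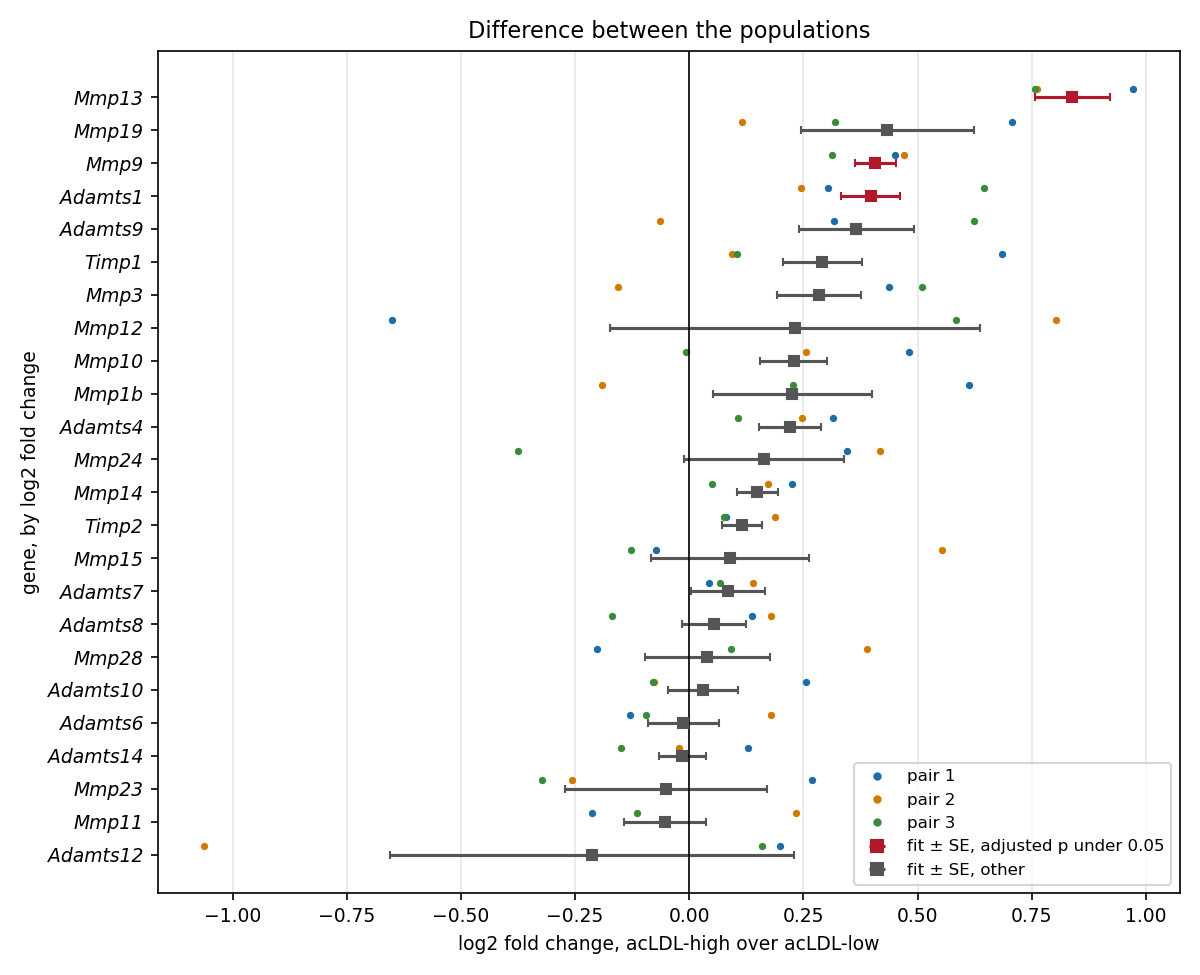
Log2 fold change of acLDL-high over acLDL-low cells for the 24 tested genes. Squares with bars are the edgeR fit ± standard error, red where the adjusted p is under 0.05, and small points are the differences within the 3 pairs. Mmp13, Mmp9 and Adamts1 are red and have all 3 pairs above 0, and the fits run from -0.21 (Adamts12) to 0.84 (Mmp13).

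Of the inhibitors, Timp1 and Timp2 had the highest levels per length of all 39 genes, at 159 and 120 CPM per kilobase of exon. Timp1, a secreted inhibitor that is also induced in wounds and inflammation (chromosome X of GRCm38, 20870166 to 20874735), was at 82.5, 188 and 118 CPM in the acLDL-low libraries of replicates 1, 2 and 3, against 133, 200 and 127 CPM in their acLDL-high partners. The acLDL-high library was the higher one in each pair, although the populations overlapped. Its log2 fold change was 0.29 ± 0.09 (standard error, SE, edgeR adjusted p = 0.0817), most of it from pair 1, with 0.68, 0.09 and 0.11 in the 3 pairs. It was 0.10 without replicate 1, 0.39 without replicate 2 and 0.39 without replicate 3 (edgeR adjusted p = 0.333, 8.6e-10 and 0.168), and DESeq2 gave an adjusted p of 0.391. With a replicate left out, the test leans on the spread shared across genes. Timp2, which binds MMP14 and takes part in activating pro-MMP2 as well as inhibiting MMPs (chromosome 11, 118301069 to 118355740), was at 459, 436 and 452 CPM in the acLDL-low libraries, against 486, 497 and 476 CPM in their acLDL-high partners. It was the steadiest of the 24 genes between occasions, and the only one whose populations did not overlap, with every acLDL-high library above every acLDL-low library (1.23% of all genes tested were higher without overlap). This difference was small, with a log2 fold change of 0.12 ± 0.04 (SE), and did not pass the test (edgeR adjusted p = 0.169). Timp3, the inhibitor that stays bound to the matrix, had 19 counts in all and Timp4 had 4.

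Of the membrane-bound MMPs, Mmp14, the main activator of pro-MMP2 and itself a collagenase, had the highest level per length, 48.7 CPM per kilobase against 0.421 for Mmp24 and 0.349 for Mmp15. It was at 282, 252 and 292 CPM in the acLDL-low libraries, against 330, 283 and 303 CPM in their acLDL-high partners (chromosome 14, 54431612 to 54445364). The populations overlapped, and the gene varied little between occasions. The fit gave a log2 fold change of 0.15 ± 0.05 (SE, edgeR adjusted p = 0.0897), with 0.23, 0.17 and 0.05 in the 3 pairs. Mmp15 and Mmp24, other transmembrane members, had means of 1.85 and 1.83 CPM in acLDL-low and 1.92 and 2.11 CPM in acLDL-high cells and did not pass the test (edgeR adjusted p = 0.834 and 0.666). Mmp17 and Mmp25, which are held by a lipid anchor, had 44 and 12 counts in all. Mmp23, anchored by its propeptide, had a mean of 0.897 CPM in acLDL-low and 0.901 CPM in acLDL-high cells.

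The gelatinases were represented by Mmp9 alone. Mmp9, which cuts denatured collagen and basement membrane collagen and releases matrix-bound growth factors, lies on chromosome 2 from 164940780 to 164955850. It was at 43.4, 50.3 and 187 CPM in the acLDL-low libraries of replicates 1, 2 and 3, against 59.3, 69.7 and 232 CPM in their acLDL-high partners. It was higher in the acLDL-high library of every pair, but the level depended far more on the occasion, with both libraries of replicate 3 above the other 4. The fitted difference was, on the log2 scale, 0.41 ± 0.05 (SE, edgeR adjusted p = 0.000311), a 1.33-fold increase, with 0.45, 0.47 and 0.31 in the 3 pairs. With any one replicate left out it lay between 0.38 and 0.46 and remained called. Mmp2, the other gelatinase, had 32 counts in all 6 libraries.

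The stromelysins Mmp3 and Mmp10 cut proteoglycans, fibronectin and laminin and activate other pro-MMPs. Mmp3 (chromosome 9, 7445822 to 7455975) was at 58.4, 35.1 and 156 CPM in the acLDL-low libraries, against 79.1, 31.5 and 222 CPM in their acLDL-high partners. It was higher in the acLDL-high library of pairs 1 and 3 and lower in pair 2, the occasion on which its level was lowest. The log2 fold change over the 3 pairs was 0.28 ± 0.09 (SE, edgeR adjusted p = 0.110). Leaving out replicates 1, 2 and 3 in turn gave 0.21, 0.47 and 0.16 (edgeR adjusted p = 0.155, 1.5e-14 and 0.620), and DESeq2 gave an adjusted p of 0.629. The lowest of these came without the pair that went the other way, and such fits lean on the spread shared across genes. Mmp10 (chromosome 9, 7502352 to 7510240) was at 16.0, 26.5 and 52.4 CPM in the acLDL-low libraries, against 22.3, 31.7 and 52.1 CPM in their acLDL-high partners. Its acLDL-high library was higher in pairs 1 and 2, while pair 3 was level. The log2 fold change was 0.23 ± 0.07 (SE, edgeR adjusted p = 0.108), and 0.12, 0.21 and 0.37 without replicates 1, 2 and 3 (edgeR adjusted p = 0.358, 0.0305 and 0.0674). Mmp11, stromelysin 3, whose precursor is activated inside the cell by furin, was at 10.7 ± 4.93 CPM in acLDL-low and 10.0 ± 3.49 CPM in acLDL-high cells (SD, n = 3). Its log2 fold change was -0.05 (edgeR adjusted p = 0.805), and 155 bases of its exons overlap Chchd10 of the opposite strand.

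Of the collagenases, which open the triple helix of fibrillar collagen, Mmp13 had the largest difference of all 24 genes. Mmp13 (chromosome 9, 7272514 to 7283331) was at 7.14, 2.79 and 10.4 CPM in the acLDL-low libraries of replicates 1, 2 and 3, against 14.0, 4.74 and 17.6 CPM in their acLDL-high partners. Each acLDL-high library exceeded its partner, and the populations overlapped, with replicate 2 low in both. The fit gave a log2 fold change of 0.84 ± 0.08 (SE, edgeR adjusted p = 0.000122), a 1.79-fold increase, with 0.97, 0.76 and 0.76 in the 3 pairs. It lay between 0.76 and 0.89 with any one replicate left out and was called each time. Mmp1b, one of the mouse counterparts of interstitial collagenase, was at 0.978, 1.23 and 3.03 CPM in the acLDL-low libraries, against 1.51, 1.07 and 3.55 CPM in their acLDL-high partners. The direction differed between pairs, with 0.61, -0.19 and 0.23, and the test was not passed (0.23 ± 0.17 on the log2 scale, edgeR adjusted p = 0.523). Mmp8, the collagenase of neutrophils, had 2 counts in all, both in 1 acLDL-high library.

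Among the other MMPs, Mmp19 was at 1.08, 0.396 and 1.97 CPM in the acLDL-low libraries, against 1.78, 0.431 and 2.46 CPM in their acLDL-high partners. It was higher in the acLDL-high library of all 3 pairs, with a log2 fold change of 0.43 ± 0.19 (SE, edgeR adjusted p = 0.230), and 1001 bases of its exons overlap genes of the opposite strand. Mmp28, or epilysin, an MMP of epithelia, was at 3.03 ± 1.91 CPM in acLDL-low and 3.06 ± 1.82 CPM in acLDL-high cells (SD, n = 3). Mmp12, the elastase of macrophages, was at 0.259 ± 0.111 CPM in acLDL-low and 0.301 ± 0.0882 CPM in acLDL-high cells (SD, n = 3). Mmp21 and Mmp27 had 6 and 2 counts in all. At the level of Mmp12 its log2 fold change of 0.23 had a standard error of 0.41.

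Mmp13, Mmp12, Mmp1b, Mmp3, Mmp10, Mmp8 and Mmp27 lie side by side in a cluster of 309 kb on chromosome 9 (7272514 to 7581885), and 5 of these 7 genes were tested. The 5 tested genes are the ones at its Mmp13 end, and Mmp8 and Mmp27 at the other end had 2 counts each. All of the 5 had positive log2 fold changes, as had 19 of the 24 tested genes and 6356 of all 12572 genes tested. Of the 5, only Mmp13 passed the test. Each of the 5 was highest in occasion 3, when both libraries of a replicate number were averaged. So were 11 of the 24 genes and 30.6% of all genes tested. For Mmp12 the margin was narrow, with 0.328 CPM in occasion 3 against 0.298 CPM in occasion 1. The 5 tested cluster genes also shared a promoter feature. They are neighbours of the same family, so the feature in each of them is not an independent observation. Its relation to their levels was not tested. RefSeq promoter windows of 300 bases (250 before to 50 after a start, GRCm38.p6) were found for 27 of the 39 genes and searched for the AP-1 motif TGACTCA on both strands, where the other strand reads TGAGTCA. AP-1, the dimer of Fos and Jun proteins, is the classic inducer of MMP genes. With Mmp1a, which lies inside the cluster, and Mmp20 and Mmp7, which lie beyond its Mmp27 end and are counted with it here, the motif stood in a window of 7 of 10 genes. It was in a window of 5 of the 5 tested cluster genes, for Mmp12 in 1 of its windows, and not in those of Mmp8, Mmp27 and Mmp20. It stood in a window of 4.85% of all tested genes that have one and in 5.20% of all windows. In the MMP, ADAMTS and TIMP genes with windows outside the cluster it was found in 0 of 22, which include Timp1, Timp2, Mmp14 and Adamts1 and also Adamts18 and Adamts20, which are not among the 39. The 12 genes without a window were Adamts4, Adamts5, Adamts6, Adamts7, Adamts8, Adamts10, Adamts15, Adamts16, Mmp2, Mmp9, Mmp17 and Mmp19.

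The sequences show where the motif sits in the cluster genes above the lowest levels, as the 120 bases before the start, 5′ to 3′ on the gene's strand, with the motif in capitals. The first base of the motif is 35 bases before the start in Mmp13, 46 in Mmp3, 63 in Mmp10 and 93 in Mmp1b. Mmp13 has it as TGACTCA and the other 3 genes as TGAGTCA. The stretches are chr9:7272394-7272513 (plus strand), chr9:7445702-7445821 (plus strand), chr9:7502222-7502341 (plus strand) and chr9:7388027-7388146 (minus strand).
Mmp13: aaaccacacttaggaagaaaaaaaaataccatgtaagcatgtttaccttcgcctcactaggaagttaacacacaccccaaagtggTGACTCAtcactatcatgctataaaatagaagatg
Mmp3: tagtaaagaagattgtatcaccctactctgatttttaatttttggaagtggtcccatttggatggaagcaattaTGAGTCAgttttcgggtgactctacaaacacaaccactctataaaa
Mmp10: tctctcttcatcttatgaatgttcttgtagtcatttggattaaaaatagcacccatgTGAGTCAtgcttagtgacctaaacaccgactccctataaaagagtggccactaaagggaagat
Mmp1b: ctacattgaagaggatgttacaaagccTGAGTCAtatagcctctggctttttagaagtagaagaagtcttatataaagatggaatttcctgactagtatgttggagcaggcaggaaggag

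Mmp12 has the motif in the window of the second of its starts, 44 bases before it, shown with 20 bases on each side (chr9:7347310-7347356, plus strand). The same stretch is given for Mmp1a (chr9:7464048-7464094, plus strand) and Mmp7 (chr9:7692007-7692053, plus strand), which were outside the authors' comparison. Mmp1a has it 73 bases before its start and Mmp7 63 bases before the first of its starts. Mmp7, or matrilysin, has no motif in the window of its second start, and had 0 counts in all 6 libraries.
Mmp12: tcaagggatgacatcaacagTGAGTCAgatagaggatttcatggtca
Mmp1a: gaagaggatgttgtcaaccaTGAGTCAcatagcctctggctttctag
Mmp7: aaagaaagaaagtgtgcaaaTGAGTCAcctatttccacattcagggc

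**Figure D3:**
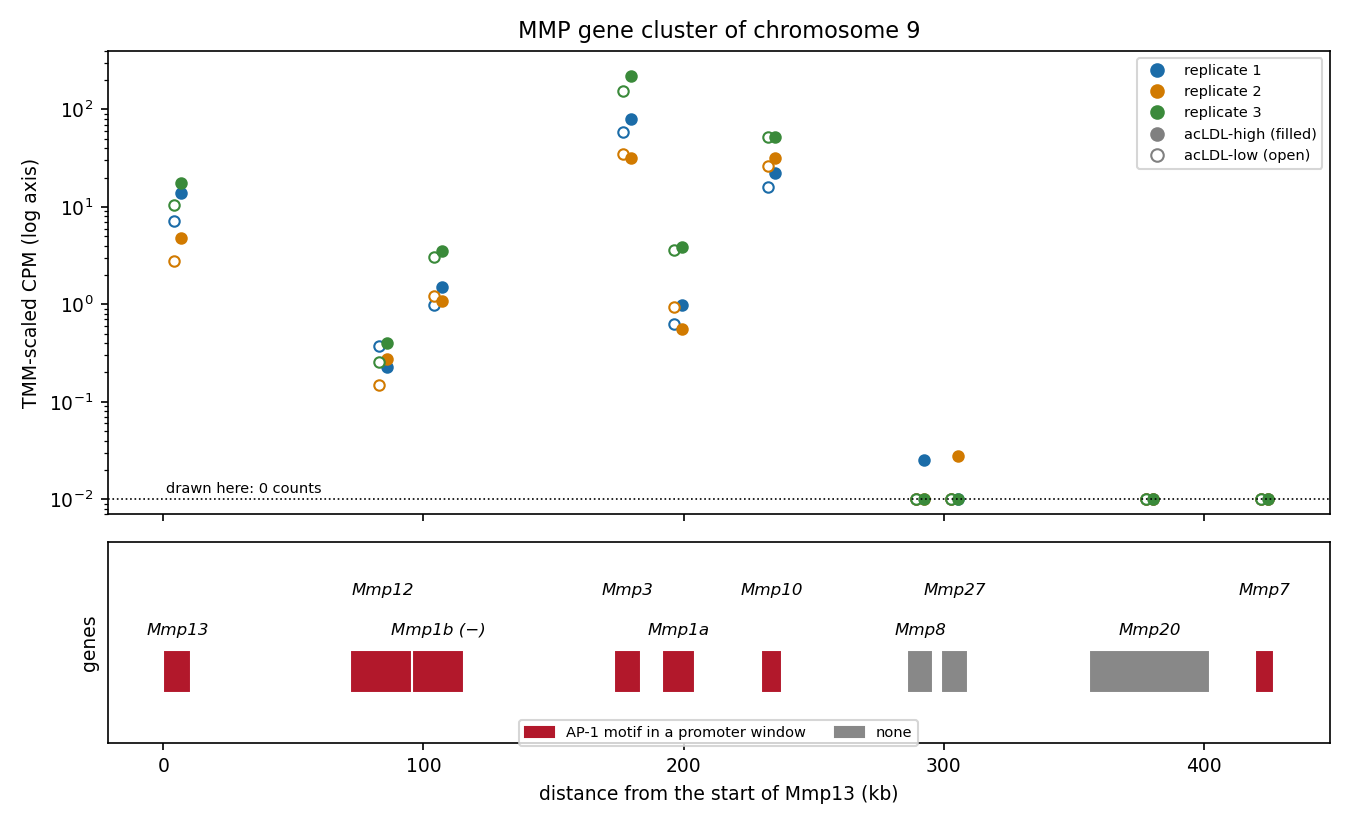
Levels of the MMP genes of the chromosome 9 cluster in each library (upper panel, TMM-scaled CPM on a log axis, open points acLDL-low and filled points acLDL-high) above their position (lower panel, distance from the start of Mmp13 in kb). Libraries with 0 counts are drawn on the dotted line, where points cover each other, and red boxes mark genes with the AP-1 motif in a promoter window. Mmp3 and Mmp10 in the middle reach 222 and 52.4 CPM, while Mmp20 and Mmp7, beyond Mmp27, have 0 counts.

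Of the ADAMTS proteases that cut aggrecan and versican, Adamts1 was the one called. Adamts1, which is also known to bind VEGF and to restrain angiogenesis (chromosome 16, 85793827 to 85803113), was at 379, 573 and 290 CPM in the acLDL-low libraries of replicates 1, 2 and 3, against 468, 678 and 453 CPM in their acLDL-high partners. Every acLDL-high library exceeded its partner, and the ranges overlapped, with both libraries of replicate 2 high. The fitted difference was, on the log2 scale, 0.40 ± 0.06 (SE, edgeR adjusted p = 0.0043), a 1.32-fold increase, with 0.30, 0.24 and 0.65 in the 3 pairs. Without replicate 3 it was 0.28 (edgeR adjusted p = 0.0385). Per length, Adamts1 was at 89.3 CPM per kilobase the third of the 39 genes. Its neighbour on the chromosome, Adamts5, a main aggrecanase of cartilage, had 48 counts in all 6 libraries, 26 of them in 1 library.

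Adamts4, the other main aggrecanase, was at 15.1, 7.76 and 19.6 CPM in the acLDL-low libraries, against 18.8, 9.22 and 21.1 CPM in their acLDL-high partners. It was higher in the acLDL-high library of all 3 pairs, with a log2 fold change of 0.22 ± 0.07 (SE, edgeR adjusted p = 0.0905). Adamts9, a versican-cutting protease needed in vascular and ciliary development, was at 7.64, 0.990 and 3.13 CPM in the acLDL-low libraries, against 9.51, 0.946 and 4.83 CPM in their acLDL-high partners. It was higher in pairs 1 and 3 and level in pair 2, where it was low in both populations, and 1805 bases of its exons overlap genes of the opposite strand. The log2 fold change was 0.37 ± 0.13 (SE, edgeR adjusted p = 0.130), and 0.39, 0.45 and 0.21 without replicates 1, 2 and 3 (edgeR adjusted p = 0.312, 0.0051 and 0.622). Adamts8, a protease of the same branch, was at 20.9 ± 2.88 CPM in acLDL-low and 22.0 ± 5.47 CPM in acLDL-high cells (SD, n = 3) and did not pass the test (edgeR adjusted p = 0.733). Adamts15, a further relative that cuts versican, had 30 counts in all.

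Of the ADAMTS genes of other branches, Adamts14, which removes the N-propeptide of procollagen, was at 73.5, 72.8 and 111 CPM in the acLDL-low libraries, against 80.4, 71.7 and 100.4 CPM in their acLDL-high partners. Its populations overlapped and its pairs pointed in different directions. The fit gave a log2 fold change of -0.02 ± 0.05 (SE, edgeR adjusted p = 0.915). The other procollagen N-proteinases, Adamts2 and Adamts3, had 4 counts each in all 6 libraries. Adamts10 and Adamts6, relatives that are linked to fibrillin microfibrils, had log2 fold changes of 0.03 and -0.01, with means of 14.9 and 12.3 CPM in acLDL-low cells. Adamts7 and Adamts12, which cut cartilage oligomeric matrix protein, had log2 fold changes of 0.08 and -0.21, and Adamts12 was at 0.220 CPM in acLDL-low cells. Adamts16 and Adamts17 had 19 and 30 counts in all, and Adamts13 had 2.

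As for most genes, levels in the families differed more between occasions than between populations. The range of the mean log2 CPM over the 3 replicate numbers exceeded the size of the log2 fold change in 23 of the 24 genes, the exception being Timp2, and in 11988 of the 12572 genes tested. These measures are unlike, since a range from lowest to highest grows with noise while the log2 fold change combines signed differences. The median range was 1.08 for the 24 genes and 0.45 over all genes tested, and it was 1.47 for the 13 MMPs and 0.54 for the 9 ADAMTS genes. A range over 1 was seen in 12 of the 24 genes and in 17.4% of all genes tested. Adamts9 had the widest, an 8.86-fold difference in mean CPM between occasions 1 and 2, and 0.803% of the genes tested had a wider log2 range. Mmp3 followed with 5.66-fold, Mmp19 with 5.36-fold, Mmp28 with 4.63-fold, Mmp9 with 4.07-fold and Mmp13 with 3.73-fold. Of the 13 tested MMPs, 10 were lowest in occasion 2, as were 14 of the 24 genes and 39.9% of all genes tested. Timp1 and Adamts1 were instead highest in occasion 2, at 194 and 625 CPM on average. The differences between occasions were not tested.

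**Figure D4:**
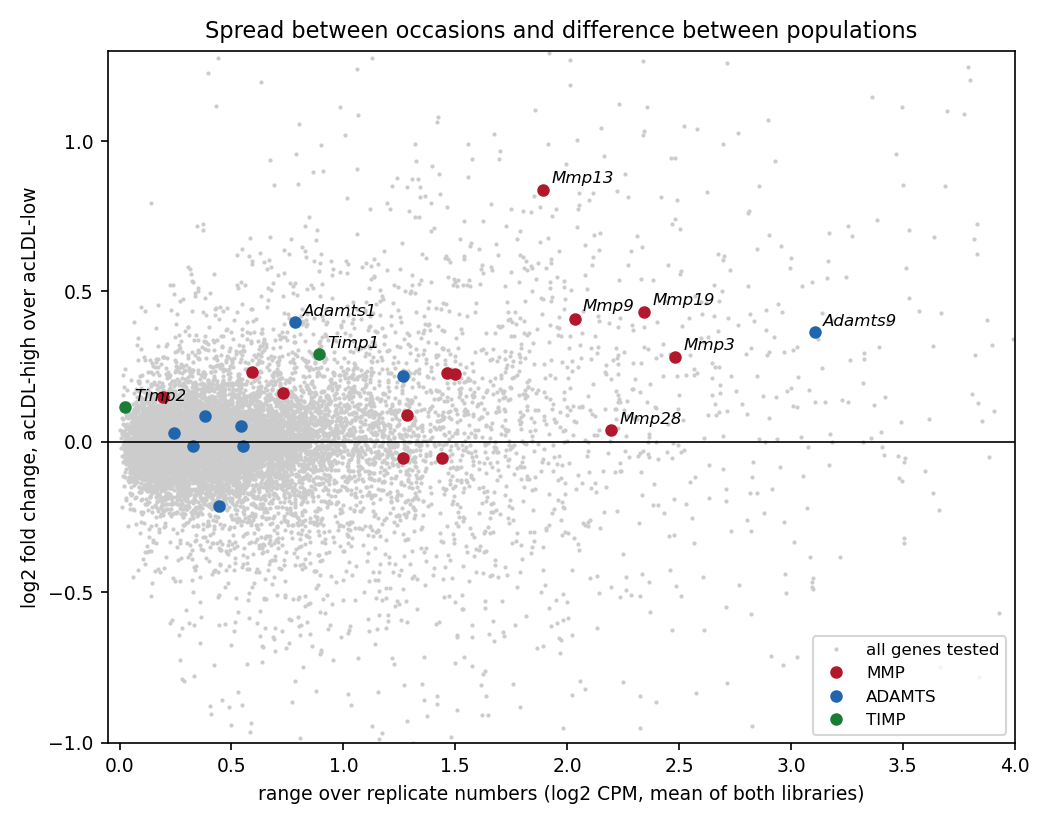
Log2 fold change of acLDL-high over acLDL-low cells against the range of mean log2 CPM over the 3 replicate numbers, for all 12572 genes tested (grey, of which 105 lie outside the axes) and the 24 MMP, ADAMTS and TIMP genes (colored). The 13 MMPs have ranges from 0.19 (Mmp14) to 2.48 (Mmp3), Adamts9 reaches 3.11, and Timp2 lies near 0.

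Summed over each family, the level was higher in the acLDL-high library of every pair. The TIMP genes summed to 542, 624 and 570 CPM in the acLDL-low libraries of replicates 1, 2 and 3, against 619, 697 and 603 CPM in their acLDL-high partners. The MMP genes summed to 435, 378 and 724 CPM in the acLDL-low libraries, against 532, 435 and 852 CPM in their acLDL-high partners. The ADAMTS genes, for which Adamts1 dominated the sum, came to 530, 714 and 476 CPM against 636, 824 and 629 CPM. Timp2 made up most of the TIMP sum in every library, and Mmp14 was the largest part of the MMP sum. Neither gene passed the test (edgeR adjusted p = 0.169 and 0.0897). Inhibitors and proteases thus both had higher sums in acLDL-high cells, which rest largely on these genes and Adamts1. None of the sums was tested.

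Other genes of extracellular proteolysis were read from lists of the pathway, none of which had a member called lower. Of 10 tested genes of plasminogen activation, the route by which plasmin activates pro-MMPs, 3 were called higher (3.43% of all genes tested were), with a median log2 fold change of 0.20. Plau, the urokinase-type activator, was at 166, 484 and 253 CPM in the acLDL-low libraries of replicates 1, 2 and 3, against 228, 576 and 335 CPM in their acLDL-high partners. It rose by a log2 fold change of 0.37 ± 0.05 (SE, edgeR adjusted p = 0.000832). Plat, the tissue-type activator, rose by 0.31 ± 0.07 (SE, edgeR adjusted p = 0.0176). For both activators each acLDL-high library exceeded its partner. Without replicate 3, Plat was at 0.39 with an edgeR adjusted p of 0.0589.

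Of 10 tested genes of MMP activation and surface control, the list that holds Furin, Reck and Bsg, 1 was called higher, against 3.43% of all genes tested. This was Lcn2, lipocalin 2, whose human counterpart is known to form a complex with MMP9 and protect it from degradation. Whether the mouse proteins do so was not tested. Lcn2 was at 101, 6.42 and 99.1 CPM in the acLDL-low libraries, against 189, 9.07 and 206 CPM in their acLDL-high partners, a log2 fold change of 0.88 ± 0.07 (SE, edgeR adjusted p = 3.72e-05). Like most MMPs it was lowest in occasion 2. Of 11 tested ADAM proteases, the membrane-bound relatives that shed surface proteins, Adam8 was called higher, by 0.23 ± 0.04 (SE, edgeR adjusted p = 0.00900), the only one of the list (3.43% of all genes tested were called higher). Without replicate 3 it had 0.25 with an edgeR adjusted p of 0.0674. Among the 5 ADAMTS-like proteins, 3 astacin procollagen proteinases, 11 cysteine cathepsins and cystatins and 6 proteoglycan substrates that were tested, 0 genes were called by edgeR, with 1, 1, 4 and 0 at an unadjusted p under 0.05. Their median log2 fold changes were 0.11, 0.0075, 0.04 and -0.09.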

How the data were processed

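RNA-Seq was measured in 6 libraries, 3 acLDL-low and 3 acLDL-high, grouped by their labels. The authors aligned reads to mm10 with STAR (version 2.5.2a, per the labels), counted them per gene with featureCounts (version 1.4.3-p1) and deposited raw counts for 53379 gene IDs. Annotation release and strand setting are not given in the sources used here. The authors' table of their DESeq2 comparison (mean count, fold change, p-values) served only for gene IDs and symbols; its other deposited columns were not used.

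The deposited counts of its 15973 genes were fitted in R 4.3.3 by the quasi-likelihood method of edgeR (version 4.0.16) after filterByExpr and TMM, with a block for replicate number (column names), which the study's DESeq2 methods also mention and its design text ties to separate occasions. Libraries of the same number deviated together (r = 0.795, 0.846 and 0.799 across genes, against -0.557 to -0.0882 for different numbers). Deviations were taken from the mean of each population's 3 libraries. Positive values for the same number therefore bring negative ones for different numbers, and that contrast is partly arithmetic. Benjamini-Hochberg adjustment covered every tested gene, and 0.05 was the threshold. Standard errors (SE) were obtained by dividing the log2 fold change by the square root of F. Differences within pairs use log2 CPM with a prior count of 2. The labels do not say that replicates are separate cultures beyond separate occasions. With the block, p-values measure the spread of the differences within these pairs of libraries, not the spread between occasions. No library repeated another. The fit was tested on 1 set of simulated data with 12481 genes. It recovered 74 of 100 genes changed by 0.4 on the log2 scale and 89 of 100 changed by 0.8. Beside these it made 19 false calls, a larger share of its calls than the threshold of 0.05 aims at.

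Positions and exon lengths are from GENCODE M21 (GRCm38, the assembly of mm10), where 53274 of the gene IDs were found. Exons of 12 of the 39 genes overlap a gene of the opposite strand, and 0 one of the same strand. Values in every library are given for genes called, the 8 highest per length and up to 4 others of at least 1 CPM with the largest fold change; in other lists up to 3 called genes are named, and some results are not reported here. Genes and lists were chosen with earlier results of these data known. Other genes are named as members of the families. Alternatives were no block, DESeq2 size factors, DESeq2 (version 1.42.0), 2 other filters, all gene IDs, each replicate left out and, chosen after seeing the data, halved counts.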

Additional observations from a re-analysis of the deposited data

Results flagged for a closer look

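Mmp1a, the second mouse counterpart of interstitial collagenase, is annotated as a polymorphic pseudogene in GENCODE M21 and lies outside the authors' protein-coding comparison, but had a total count of 853 over the 6 libraries, above the limit that a count of 0 allows. It lies in the same cluster (chromosome 9, 7464141 to 7476869). It was at 0.634, 0.941 and 3.60 CPM in replicates 1, 2 and 3 of acLDL-low cells and at 0.980, 0.556 and 3.86 CPM in acLDL-high cells. Both libraries of replicate 3 were thus the highest, as for Mmp1b, its close copy, with which reads can be shared. In a fit over all gene IDs the log2 difference of acLDL-high over acLDL-low was 0.04 ± 0.21 (SE, edgeR adjusted p = 0.954). Mmp7, Mmp16, Mmp20, Adamts18, Adamts19 and Adamts20, also outside that comparison, had 0 counts in all libraries.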

How the results depend on the processing

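The count of family genes called higher was 3 in the reported fit and the same 3 genes, Mmp13, Mmp9 and Adamts1, were called with DESeq2's size factors, DESeq2, at least 10 counts in every library, all gene IDs, halved counts (chosen after seeing the data) and without replicates 1 or 3. It was 0 without the replicate block, 9 without a filter on low counts (further Timp1, Mmp3, Mmp10, Mmp14, Adamts4 and Adamts9) and from 3 to 7 with a replicate left out, 7 being without replicate 2. With a replicate left out, few degrees of freedom remain for each gene and the test leans on the spread shared across genes. Called lower were 0 in every setting. Over all genes, 431 were called higher and 166 lower, against 0 and 0 without the replicate block (45 at an unadjusted p under 0.05), 669 and 263 without a filter, and 112 to 602 higher and 14 to 267 lower with a replicate left out (lowest without replicate 3, highest without replicate 2). The cause was not tested.

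Across the 24 tested family genes and the 5 called pathway genes, 253 of the alternative values kept direction and side of the threshold, 10 lost and 10 gained a call, and 15 changed sign, none in a called gene. With each replicate left out in turn, sign changes gave log2 ranges of -0.17 to 0.040 for Mmp11, -0.049 to 0.19 for Mmp28, -0.078 to 0.088 for Adamts10, -0.30 to 0.074 for Mmp23, -0.10 to 0.21 for Mmp15, -0.013 to 0.16 for Adamts8, -0.11 to 0.045 for Adamts6, -0.46 to 0.20 for Adamts12, -0.014 to 0.74 for Mmp12 and -0.086 to 0.055 for Adamts14. Without the replicate block Mmp23 was at 0.010 and Adamts6 at 0.00010, and with halved counts Mmp23 was at 0.0019. Without the block Mmp13, Mmp9 and Adamts1 were at 0.84, 0.37 and 0.37. Depth limits Mmp12 and Adamts12 and the 15 untested genes.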
